A study of Mus musculus with 6 samples.

Results

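The genes described here are the zinc finger genes with symbols from Zfp500 to Zfp999 in brain libraries of mice given AVE0991 or vehicle. Of 36210 gene rows measured, 211 carried such a symbol. The 185 members were selected on abundance, as those whose mean over the 6 columns of estimated read counts was at least 50, and 26 lay under that limit. The mean that chose them took in both groups, so a gene measurable in 1 group could enter through that group. Just inside the limit stood Zfp677, Zfp966 and Zfp991, with means of 51.7, 57.7 and 61.2 counts. Just outside it stood Zfp953, Zfp982 and Zfp951, with 49.3, 49.2 and 46.2 counts. Symbols in this range were assigned by number and not by function. The members are therefore a mixture of families, most of them with C2H2 zinc fingers. In 7 members with a coding sequence a C2H2 pattern found no finger, and 1 other member, Zfp652os, is an opposite-strand RNA with no protein.

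All 6 libraries came from brains of APP/PS1 mice, a strain that carries mutant human amyloid precursor protein and presenilin transgenes and forms amyloid plaques. The mice were 8 months old per the series design text. The vehicle group (3 libraries) received sterile saline into the peritoneum daily, for 30 days in all. The AVE0991 group (3 libraries) received AVE0991, a non-peptide agonist of the angiotensin-(1-7) receptor, at 10 mg per kg by the same route and schedule. Both groups carry the transgenes, and no group without them is compared here. The labels give neither the promoters of the transgenes nor the background strain. They also do not say how the cells were isolated, or whether a library is 1 animal or a pool, so each p-value reflects no more than how far these libraries varied, which may be technical variation.

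The libraries held 44583296 to 50066692 counts on gene rows. The labels name adult astrocytes. The summed level of 8 astrocyte markers, in CPM, read counts scaled to TMM library sizes, was 5487 to 6887 in vehicle and 6215 to 7551 in AVE0991 libraries. 8 neuron markers summed to 4530 to 5403 and 4065 to 4679 CPM, and 5 oligodendrocyte markers to 3264 to 7206 and 4946 to 10996 CPM, so transcripts of these cells were present too. Lower sums were seen for 5 microglia markers, 209 to 258 and 208 to 281 CPM. For 4 endothelial markers they were 47.6 to 96.0 and 28.0 to 90.5 CPM. Sums over different marker lists do not compare amounts of cells. 8 cerebellar granule cell markers summed to 184 to 220.3 CPM in vehicle libraries and to 220.8, 2076 and 2045 CPM in AVE0991 replicates 1, 2 and 3. AVE0991 replicates 2 and 3 thus stood apart from the other 4 libraries. In such bulk samples fewer cells of a type and less RNA per cell cannot be told apart.

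A C2H2 zinc finger is a small fold held by a zinc ion between a pair of cysteines and a pair of histidines, and each finger reads a few bases of DNA. Many mammalian members carry long arrays of fingers joined by a conserved linker, and a KRAB box near the start of the protein. The KRAB box binds Trim28, which brings in the histone methyltransferase Setdb1 and other heterochromatin proteins. KRAB zinc finger proteins are best known for silencing transposable elements. Their genes arose by repeated duplication and lie side by side in clusters, so neighbours often resemble each other closely.

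The coding sequences of the genes called lower below show both features. In GENCODE transcripts (release M21, built on GRCm38) a KRAB box pattern was found in 96 of the 182 members with a coding sequence, and in 17 of the 19 called members. The core of the box is shown for 6 called genes, because its 10 residues are the stretch by which the members were divided into classes. Capitals mark the bases for its first 6 residues, which 2 other patterns described further on also use.
Zfp945: TTGTACATGGATGTGATGctagagaattac
Zfp994: TTGTACATGGATGTGATGttggagaattac
Zfp758: TTGTACATGGATGTTATGttggagaattac
Zfp729b: CTGTACAGGAATGTGATGttggagaattat
Zfp738: CTGTACAGGGACGTGATGctggagaattac
Zfp729a: CTGTACAGGGACGTGATGctcgagaactac
Zfp945, Zfp994 and Zfp758 are neighbours in gene order, as are Zfp729b, Zfp738 and Zfp729a. The first zinc finger followed by a standard linker is shown for the same genes, 5′ to 3′ on the coding strand, with the bases that code for the linker in capitals. These 84-base units show how alike single fingers of neighbours can be. They do not measure how many reads are shared, and the shared words of whole transcripts are given further on.
Zfp945: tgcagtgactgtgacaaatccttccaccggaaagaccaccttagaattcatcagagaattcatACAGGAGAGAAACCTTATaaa
Zfp994: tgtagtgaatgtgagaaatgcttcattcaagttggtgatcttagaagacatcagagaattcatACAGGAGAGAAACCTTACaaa
Zfp758: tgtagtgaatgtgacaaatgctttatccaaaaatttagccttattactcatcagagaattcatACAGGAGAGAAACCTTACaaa
Zfp729b: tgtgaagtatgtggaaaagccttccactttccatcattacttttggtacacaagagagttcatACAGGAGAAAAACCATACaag
Zfp738: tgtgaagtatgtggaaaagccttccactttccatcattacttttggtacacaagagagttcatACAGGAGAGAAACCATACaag
Zfp729a: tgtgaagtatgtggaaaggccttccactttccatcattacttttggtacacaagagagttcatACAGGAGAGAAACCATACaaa
The units of Zfp729b and Zfp738 were equal at 83 of 84 bases, those of Zfp738 and Zfp729a at 82, and those of Zfp729b and Zfp729a at 81. The units of Zfp994 and Zfp758 were equal at 69 of 84 bases. Over the 105 pairs of the 15 called genes with such a unit, identity ranged from 50% to 98.8%, with a median of 63.1%. Counts of single genes in the Zfp729 group are therefore uncertain where reads fall in the finger arrays.

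In libraries of AVE0991-treated mice 19 of the 185 members fell and 0 rose. Calls were made with edgeR's quasi-likelihood F test on all 20363 genes that passed a filter on low counts, at a Benjamini-Hochberg adjusted p under 0.05, and all 185 members passed that filter. The 19 were 10.3% of the members, against 0.83% of all genes tested in that direction. In the higher direction 0.0344% of all genes tested were called, and the smallest adjusted p of a member above 0 was 0.0868. At an unadjusted p under 0.05, 75 members were lower and 19 higher, against 12.7% and 10.9% of all genes tested, so the share of higher members, 10.3%, was near the background. DESeq2 called 64 members lower and 8 higher, against 6.56% and 4.97% of all genes. Of the 19 members that fell, 14 fell at least 2-fold. Their adjusted p-values lay between 0.0374 and 0.0499, all close to the threshold. Their transcripts had a GC content of 35.4% to 41.2%, against a median of 43.6% for all members. After a correction for GC content edgeR called 0 members, and 0 lower and 1 higher among all genes tested, as described further on. With any single library other than AVE0991 replicate 1 left out edgeR called 0 members and 0 of all genes tested. In these fits 67 to 74 members were lower by unadjusted p (under 0.05), against 8.51% to 11.3% of all genes. Leaving out AVE0991 replicate 1 gave 47 lower and 10 higher members, against 4.76% and 6.63% of all genes, so calls became more frequent outside the members too. The median log2 fold change of the 185 members was -0.24, with quartiles of -0.77 and 0.11, against -0.01 for all genes tested.

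The largest decrease was in Zfp945 (Entrez gene 240041), a KRAB gene with 18 fingers. It stood at 9.06, 7.94 and 9.54 CPM in the vehicle libraries and 3.63, 2.79 and 1.95 CPM in the AVE0991 libraries, here and below in the order of replicates 1, 2 and 3. The highest AVE0991 library was below 7.94 CPM, the lowest vehicle library, and the mean went from 8.85 ± 0.819 to 2.79 ± 0.839 CPM (SD, n = 3 each; log2 fold change -1.66, SE 0.24, edgeR adjusted p = 0.043). Zfp994 (Entrez gene 240038), of the same run of zinc finger genes, had 6.13, 4.38 and 5.86 CPM in the vehicle libraries and 1.83, 2.24 and 1.63 CPM in the AVE0991 libraries. This was a 2.86-fold decrease (log2 fold change -1.52, SE 0.22, edgeR adjusted p = 0.043). Zfp758 (Entrez gene 224598) belongs to the same run of genes and fell 2.62-fold, from 3.76 ± 0.395 to 1.43 ± 0.189 CPM. None of the 3 had overlapping groups.

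In a second run of neighbours, Zfp729b (Entrez gene 100416706) stood at 11.9, 11.1 and 10.7 CPM in the vehicle libraries and 4.65, 3.31 and 3.47 CPM in the AVE0991 libraries. This was a 2.94-fold decrease (log2 fold change -1.56, SE 0.17, edgeR adjusted p = 0.0374). Zfp738 (Entrez gene 408068), the most abundant of the 4 called genes there, had 23.5, 17.8 and 20.2 CPM in the vehicle libraries and 8.04, 7.21 and 8.13 CPM in the AVE0991 libraries and fell 2.63-fold (adjusted p = 0.0374, edgeR). Zfp729a (Entrez gene 212281) fell 2.08-fold, from 12.1 ± 0.517 to 5.84 ± 0.303 CPM, and Zfp759 fell 2.55-fold, from 5.53 ± 0.119 to 2.16 ± 0.249 CPM. The share of 50-base words of the longest transcript that also occurred in another gene was 40.8% for Zfp729b, 13.6% for Zfp729a, 9.12% for Zfp738 and 0.528% for Zfp759. Zfp759 was thus the gene of this run with the least ambiguous counts. Of the words of Zfp729b 40.4% occurred in Gm49345, and of those of Zfp738 6.59% occurred in Zfp729a.

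The other called KRAB genes fell 1.58- to 2.70-fold. Zfp930, with 12 fingers, had 6.55, 5.42 and 6.79 CPM in the vehicle libraries and 2.37, 2.79 and 1.77 CPM in the AVE0991 libraries. Zfp938 went from 6.44 ± 0.886 to 2.47 ± 0.242 CPM, Zfp958 from 6.09 ± 0.499 to 2.35 ± 0.230 CPM and Zfp976 from 5.65 ± 1.27 to 2.24 ± 0.0581 CPM. At higher levels, Zfp950 stood at 16.97, 11.7 and 14.5 CPM in the vehicle libraries and 5.96, 5.05 and 5.65 CPM in the AVE0991 libraries, a 2.59-fold decrease. Every AVE0991 library of these 5 genes was below every vehicle library. Zfp971 fell 2.22-fold and Zfp955a 2.15-fold. Both share a large part of their transcript with other genes, 40.05% and 51.8% of words, and the closest relative of Zfp955a is its neighbour Zfp955b (log2 fold change -0.84, SE 0.14, edgeR adjusted p = 0.0509). Zfp850 fell 1.998-fold and Zfp788 1.91-fold. Zfp655 had the smallest decrease of the 19, at 24.8, 27.3 and 27.9 CPM in the vehicle libraries and 16.6, 17.02 and 17.2 CPM in the AVE0991 libraries (1.58-fold, log2 fold change -0.66, SE 0.09, edgeR adjusted p = 0.043).

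2 called members held no KRAB box by the pattern. Zfp638 encodes a large nuclear protein with matrin-type zinc fingers that binds DNA and RNA and is known as a cofactor in fat cell differentiation. It was the most abundant called member, at 109.8, 96.96 and 99.2 CPM in the vehicle libraries and 49.7, 57.2 and 62.4 CPM in the AVE0991 libraries, a 1.81-fold decrease (log2 fold change -0.85, SE 0.12, edgeR adjusted p = 0.043). Zfp770 stood at 20.7, 21.5 and 20.3 CPM in the vehicle libraries and 11.01, 11.1 and 10.7 CPM in the AVE0991 libraries and fell 1.90-fold with an SE of 0.09 on the log2 scale. Neither has a close copy, with 1.32% of the words of Zfp638 and 0% of those of Zfp770 found in another gene.

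**Figure D1:**
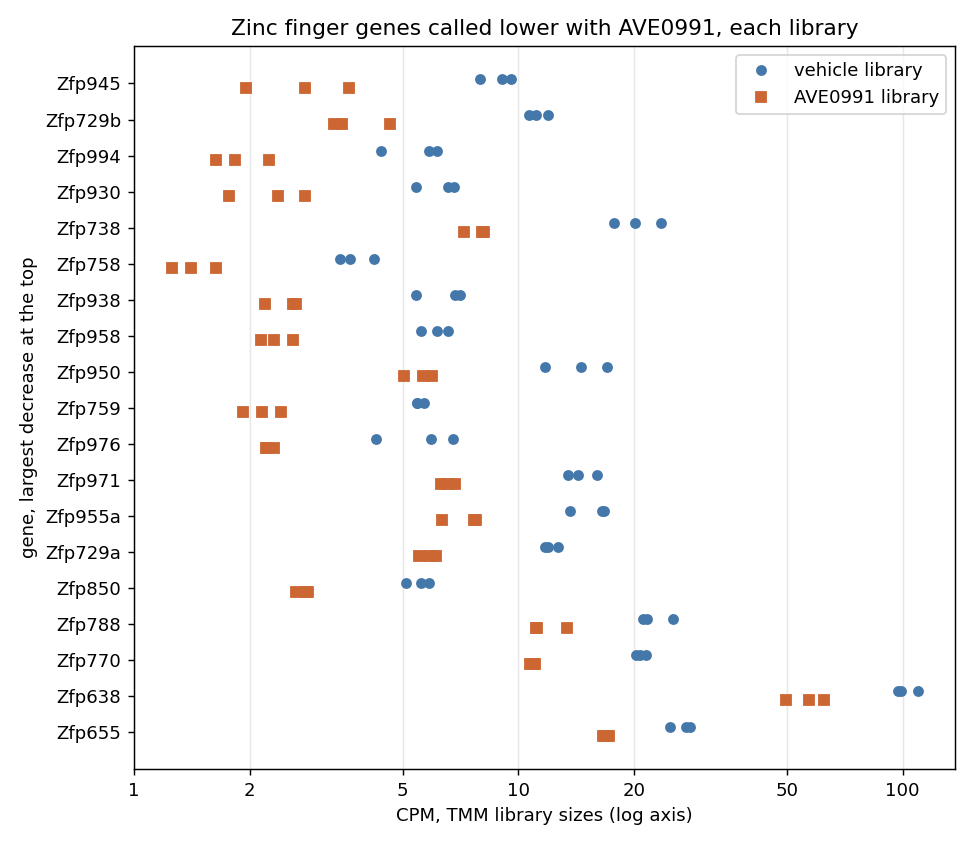
CPM on TMM library sizes (log axis) of the 19 zinc finger genes called lower, with 1 circle per vehicle library and 1 square per AVE0991 library (n = 3 each), ordered from the largest decrease at the top. In all 19 genes the 3 AVE0991 libraries lie below the 3 vehicle libraries, from Zfp945 (log2 fold change -1.66) to Zfp655 (-0.66).

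Groups that did not overlap were frequent among the members. In 81 of the 185 members (43.8%) every AVE0991 library lay below every vehicle library, against 16.3% of all genes tested, and in 25 members (13.5%) every AVE0991 library lay above, against 14.3%. The lower share depended on GC content. At up to 42% transcript GC it was 86.3% of 73 members and 56.8% of 1941 other genes. The median deviation of the members from each gene's mean over the 6 libraries, on the log2 CPM scale, was 0.17, 0.095 and 0.11 in vehicle replicates 1, 2 and 3. It was -0.21, -0.10 and -0.089 in AVE0991 replicates 1, 2 and 3, so the member median was lower in each of the 3 AVE0991 libraries. It was lowest in replicate 1. With AVE0991 replicates 2 and 3 both left out the median log2 fold change of the members was -0.35, and edgeR, with the lone AVE0991 library assumed to vary like the vehicle ones, called 0 members, with 78 lower and 7 higher at an unadjusted p under 0.05, against 9.91% and 2.98% of all genes tested.

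Members in which the KRAB box pattern was found were lower as a group than those in which it was not. Of the 96 members in which the pattern was found, 17 were called lower, 83 had a log2 fold change below 0, and the median was -0.61 with quartiles of -1.06 and -0.25. Of the 86 without it, 2 were called, 37 were below 0, and the median was 0.065. Groups did not overlap in the lower direction in 66.7% of the KRAB members and 18.6% of the others. The median GC content of the transcripts was 40.3% and 51.1% in these 2 classes. At up to 42% GC the shares without overlap in the lower direction were 86.9% of 61 KRAB members and 83.3% of 12 others. The median deviation of the KRAB members was 0.34, 0.22 and 0.29 in the 3 vehicle libraries and -0.42, -0.25 and -0.30 in the 3 AVE0991 libraries, and that of the others stayed between -0.033 and 0.060. These shares and medians describe the classes. The difference between them was not tested.

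The box pattern was changed after boxes lacking its first letters had been seen in called genes, so the split was not independent of the values. The change dropped those letters but asked for others at the end of the core, so the patterns are not nested. Zfp781, Zfp791, Zfp799, Zfp866, Zfp873, Zfp941, Zfp963 and Zfp964 hold a box by the stricter pattern below. They are nevertheless counted among the 86 members without one. With the pattern tried first, 84 members held a box, of which 13 were called, with a median of -0.56. The other 98 did not, of which 6 were called, with a median of -0.0014. With a stricter pattern that allows no substitution, 64 members held a box, 12 were called and the median was -0.66. Zinc finger genes outside the numbered range gave a comparison. The 166 genes from Zfp1 to Zfp499 with at least 50 counts had 7 called lower and a median of -0.15, and the 75 of them with a KRAB box had 4 called lower and a median of -0.30. The 75 genes of the Zbtb, Zkscan, Zscan and Klf families had 1 called lower and a median of 0.041. Whether the members differed from these groups was not tested.

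**Figure D2:**
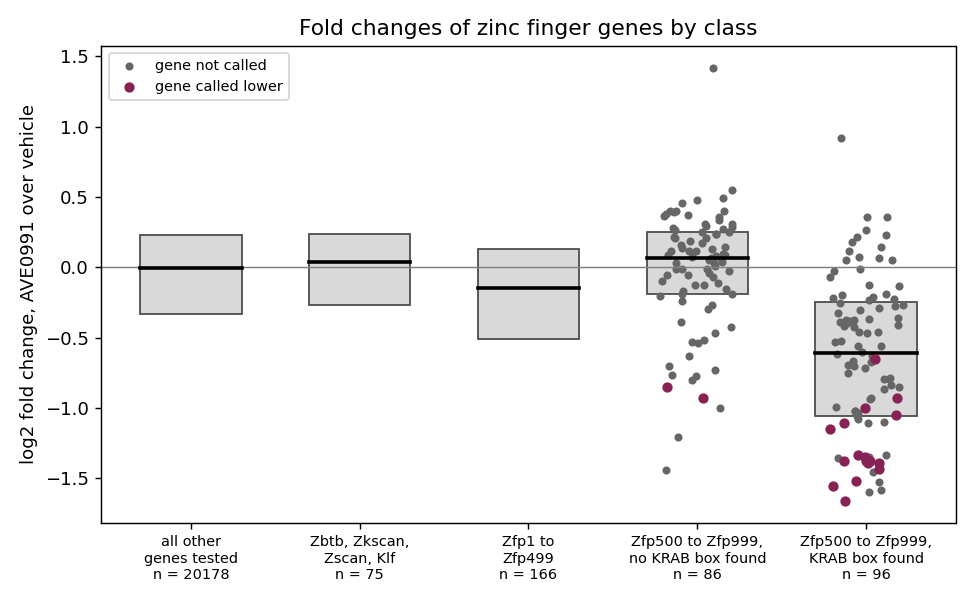
Log2 fold change (AVE0991 over vehicle) of all other genes tested, of other C2H2 families, of Zfp1 to Zfp499 and of the Zfp500 to Zfp999 members without and with a KRAB box by the main pattern, with boxes from the lower to the upper quartile, a line at the median and, for the members, 1 point per gene. The KRAB members have a median of -0.61 and hold 17 of the 19 called genes, drawn in dark red.

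Gene clusters were described next, since KRAB genes lie in tandem. In the gene order of the RefSeq annotation of GRCm38, 112 members lay in 27 runs of 2 or more, where a run allows at most 5 other protein-coding genes between members, and 71 lay alone. The 63 members in the 8 runs of 6 or more had 11 called and a median of -0.53 on the log2 scale. Those alone had a median of -0.072 and 6 called. The longest run, on chromosome 17, held Zfp945, Zfp994, Zfp758, Zfp760, Zfp995, Zfp677, Zfp948, Zfp942, Zfp943, Zfp983, Zfp944 and Zfp946. All 12 held a KRAB box, all 12 lay below 0, and their median was -1.08. In this run Zfp760 had 5.75, 4.13 and 5.28 CPM in the vehicle libraries and 1.46, 2.55 and 1.91 CPM in the AVE0991 libraries (log2 fold change -1.36, SE 0.26, edgeR adjusted p = 0.064) and missed the threshold. The run on chromosome 13 that holds Zfp729b, Zfp738, Zfp759 and Zfp729a has 10 members, all with a KRAB box and all below 0, with a median of -1.07. Its uncalled member Zfp748 stood at 10.2, 9.71 and 9.74 CPM in the vehicle libraries and 3.87, 6.01 and 4.56 CPM in the AVE0991 libraries (log2 fold change -1.04, SE 0.19, edgeR adjusted p = 0.0579), with groups that did not overlap. Transcripts of both runs had at most 40.8% GC. Of 1941 other genes of up to 42% GC, 1711 lay below 0.

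Other runs had medians above 0. The run of Zfp688, Zfp771, Zfp689, Zfp747, Zfp553, Zfp764 and Zfp768 had a median of 0.18, that of Zfp580, Zfp784, Zfp579, Zfp524, Zfp865 and Zfp628 a median of 0.23, and that of Zfp786, Zfp746, Zfp777 and Zfp956 a median of 0.27, with all 17 members above 0 and none called. 4 of the 7 members of the Zfp688 run hold a KRAB box and still lay above 0. Transcripts of these 3 runs had a GC content of 51.9% to 68.7%, against 35.4% to 40.8% in the 2 runs with the lowest medians. Of 8150 other genes above 50% GC, 5917 lay above 0. Near the middle, the run with Zfp940, Zfp566, Zfp790 and Zfp568, all KRAB genes, had a median GC content of 47.6% and a median log2 fold change of -0.073. Neighbours share sequence, so runs are not independent measurements.

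**Figure D3:**
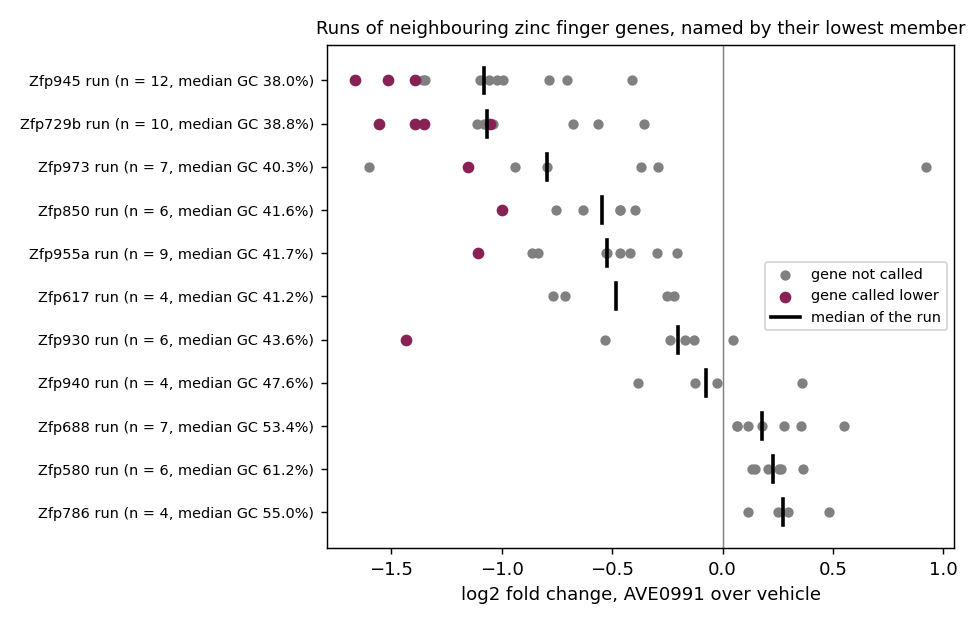
Log2 fold change (AVE0991 over vehicle) of the members in each of the 11 runs of 4 or more neighbouring zinc finger genes, with 1 point per gene, called genes in dark red, and a bar at the median of the run. Runs are named by their lowest member and ordered by median, from -1.08 in the Zfp945 run (12 genes) to 0.27 in the Zfp786 run (4 genes).

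Fold change followed the GC content of the transcript. Across the 185 members Spearman's rho between log2 fold change and GC content of the longest transcript was 0.82, given as a description because the members share the same 6 libraries. The 23 members at up to 38% GC had a median of -1.02, the 26 above 38% and up to 40% a median of -0.93, and the 24 above 40% and up to 42% a median of -0.77. The 30 members above 42% and up to 45% had a median of -0.34, and the 29 members above 55% a median of 0.24. All 19 called members lay between 35.4% and 41.2% GC. Of the 112 members above 42%, a limit chosen after the values were seen, 0 were called, and of 14738 other genes above it 14 were called lower. Among members above 50% GC, 24 of 58 (41.4%) had AVE0991 libraries all above vehicle libraries and 0 had them all below, against 26.0% and 2.09% of 8150 other genes of that GC content.

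Genes that are no member showed the same order at a smaller size. At up to 42% GC, 115 of 1941 other genes (5.92%) were called lower, with a median of -0.45, against 19 of 73 members and a median of -0.85. Above 50% GC the medians were 0.16 for 8150 other genes and 0.21 for 58 members. Within the members of up to 42% GC, the 61 with a KRAB box had 17 called and a median of -0.94, and the 12 without had 2 called and a median of -0.75. Those 12 include Zfp781, Zfp799 and Zfp873, in which the stricter pattern found a box. Above 42% GC the 35 with a box had a median of -0.20 and the 74 without a median of 0.10. GC content moved with the fold change of the members, with the KRAB class and with the runs, and its part in the result was tested only by the correction that follows.

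With each library corrected for transcript GC content across all genes, the median of the members was -0.050. Of them edgeR called 0, with a smallest adjusted p of 0.173, and among all genes tested it called 0 lower and 1 higher. At an unadjusted p under 0.05, 43 members were lower and 5 higher, against 6.98% and 8.7% of all genes. All 19 members called without the correction were still below 0, between -0.94 and -0.26, with a median of -0.67. Zfp729b stood at -0.94 (SE 0.18), Zfp945 at -0.89, Zfp738 at -0.84, Zfp638 at -0.39 and Zfp655 at -0.26. Of the 73 members of up to 42% GC 56 remained below 0, with a corrected median of -0.38, where the 1941 other genes of that GC content had a corrected median of 0.038. For the 61 KRAB members among them the corrected median was -0.40, and for the 12 others -0.094. The 58 members above 50% GC had a corrected median of 0.051. Across the 185 members rho between GC content and the corrected log2 fold change was 0.41, so a trend with GC content remained within them. No adjusted p of a member passed after this correction.

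**Figure D4:**
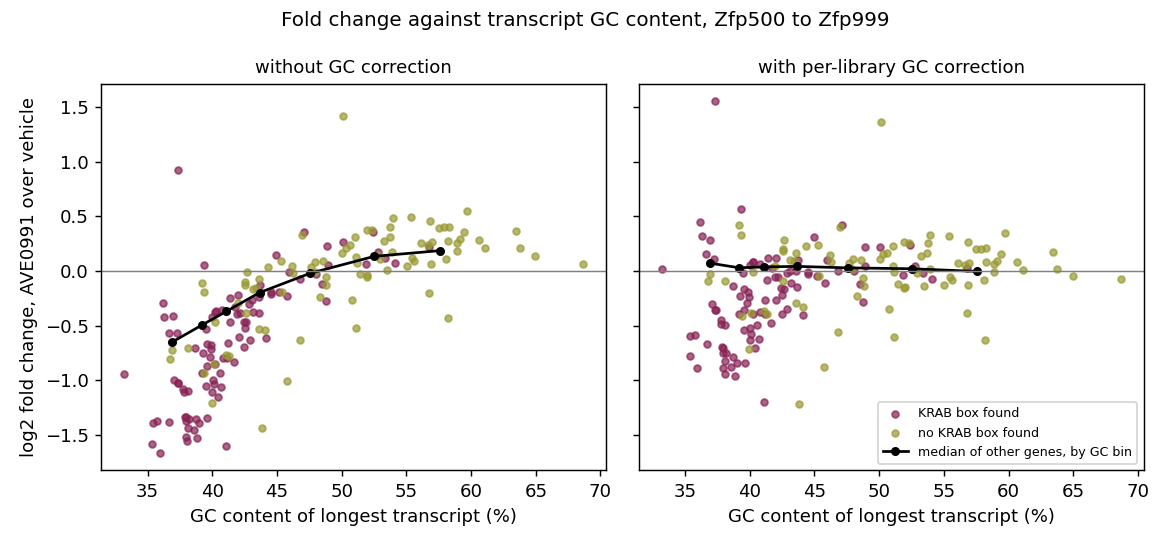
Log2 fold change (AVE0991 over vehicle) against the GC content of the longest transcript in percent, without (left) and with (right) a per-library GC correction, with 1 point per member coloured by KRAB class and black points for the median of all other genes in 7 bins of GC content. On the left, members up to 42% GC have a median of -0.85, below the -0.45 of other genes, and on the right -0.38 against 0.038.

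Other properties moved less closely with the fold change. The number of fingers found by a pattern had a rho of -0.33 across 182 members, the share of words in common with other genes -0.40, mean FPKM 0.53 and transcript length 0.00025. The 41 members with 15 or more fingers had 10 called and a median of -0.72, at a median GC of 40.1%. The 24 members with 1 to 4 fingers had 1 called and a median of 0.037, at 51.1% GC. Called members had a median of 7 fingers followed by a standard linker, at a median GC of 38.1% within those units, and uncalled members a median of 2 at 44.5%. The 28 members with more than 20% of their words in another gene had 4 called and a median of -0.78. The 109 members with at most 1% shared had 8 called and a median of -0.058. The part of shared reads in the values was not tested.

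Some uncalled members varied widely between libraries. Zfp973, in the run of Zfp971, had 6.28, 6.61 and 1.81 CPM in the vehicle libraries and 1.62, 2.05 and 1.18 CPM in the AVE0991 libraries, and its vehicle replicate 3 lay near the AVE0991 libraries (log2 fold change -1.60, SE 0.50, edgeR adjusted p = 0.138). Zfp966 of the same run had 0.0661, 1.39 and 0.996 CPM in the vehicle libraries and 2.15, 1.18 and 1.34 CPM in the AVE0991 libraries, so that vehicle replicate 1 was nearly without reads (log2 fold change 0.92, SE 0.80, edgeR adjusted p = 0.52). Zfp991 stood at 1.90 ± 0.970 to 0.631 ± 0.210 CPM in mean ± SD from vehicle to AVE0991 libraries and Zfp677 at 1.46 ± 0.457 to 0.678 ± 0.150 CPM, with groups that did not overlap but adjusted p-values of 0.119 and 0.126 by edgeR.

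The members with established roles were described as a list of 24. 1 of them, Zfp638, was called lower and 0 higher, 11 lay below 0 and 13 above, and the median was 0.13, against -0.24 over all members. Zfp711, a chromatin-associated factor whose human counterpart is linked to intellectual disability, stood at 7.52, 4.32 and 6.08 CPM in the vehicle libraries and 2.89, 2.42 and 2.45 CPM in the AVE0991 libraries (log2 fold change -1.21, SE 0.24, edgeR adjusted p = 0.0693). Its groups did not overlap, and it has 11 fingers but no KRAB box. Zfp804a, whose human counterpart lies at a locus associated with schizophrenia, had 16.1, 21.3 and 22.03 CPM in the vehicle libraries and 12.4, 11.2 and 6.08 CPM in the AVE0991 libraries (log2 fold change -1.003, SE 0.28, edgeR adjusted p = 0.119). Its transcript has 45.7% GC, and after the GC correction it stood at -0.88. Zfp518a stood at -0.80 (SE 0.17) and, after the correction, at -0.094.

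Of the KRAB proteins with known targets, Zfp809, which recruits Trim28 to retroviral sequences, had 7.43, 5.89 and 6.51 CPM in the vehicle libraries and 5.48, 5.90 and 5.92 CPM in the AVE0991 libraries (log2 fold change -0.20, SE 0.15, edgeR adjusted p = 0.451), and the groups overlapped. Zfp568, a repressor of a placental Igf2 promoter, stood at 0.36 (SE 0.25, adjusted p = 0.415, edgeR), also within the spread between libraries.

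Zfp532, Zfp592 and Zfp687, partners of the chromatin reader Zmynd8, had values above 0 and did not pass. Zfp687 stood at 55, 61.1 and 62.7 CPM in the vehicle libraries and 70.5, 97.9 and 83.8 CPM in the AVE0991 libraries (log2 fold change 0.50, SE 0.14, edgeR adjusted p = 0.119), with no overlap between groups. Zfp592 stood at 0.38 (SE 0.13) and Zfp532 at 0.23 (SE 0.12), each with all AVE0991 libraries above all vehicle libraries. Zfp609, a regulator of cortical progenitors, stood at 0.38 and Zfp516, a factor of brown fat, at 0.40, without overlap. Zfp598, the ubiquitin ligase that senses collided ribosomes, went from a mean of 34.5 ± 3.43 in vehicle to 44.2 ± 6.35 CPM with AVE0991 (log2 fold change 0.36, SE 0.14, edgeR adjusted p = 0.181). Zfp622, which acts in maturation of the large ribosomal subunit, stood at -0.072 (SE 0.15).

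The NET-family genes Zfp703 and Zfp503 stood at 0.29 (SE 0.10) and 0.18 (SE 0.36), of which Zfp703 had no overlap between groups. Zfp644, a partner of the H3K9 methyltransferases Ehmt1 and Ehmt2, was uneven, with 67.3, 137 and 104 CPM in the AVE0991 libraries and 117, 101.1 and 115 CPM in the vehicle ones. Zfp704, Zfp827, Zfp830, Zfp618 and Zfp652 lay between -0.24 and 0.16 and none passed. Zfp652 (-0.015) and Zfp652os (-0.063) lie on opposite strands, and because no source used here says whether counting used strand, their reads cannot be told apart where they overlap.

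Zfp521, a cofactor in neural progenitors and in blood and bone cells, had the largest positive value of the members. It stood at 25.1, 27.00 and 33.6 CPM in the vehicle libraries and 26.96, 113 and 90.01 CPM in the AVE0991 libraries (log2 fold change 1.42, SE 0.48, edgeR adjusted p = 0.153). AVE0991 replicate 1 lay within the vehicle range, and the high values were in replicates 2 and 3, the libraries that stood apart in cerebellar granule cell markers. All 8 granule cell markers lay above 0, with summed levels of 184 to 220.3 CPM in vehicle and 220.8 to 2076 CPM in AVE0991 libraries, and 3 Purkinje cell markers summed to 75.5 to 93.1 and 76.2 to 606 CPM. With those 2 libraries left out Zfp521 stood at -0.076 on the log2 scale. Zfp536, a repressor of neuronal differentiation, had 56.4, 61.8 and 63.03 CPM in the vehicle libraries and 56.7, 107 and 84.8 CPM in the AVE0991 libraries and stood at 0.46 (SE 0.22), and at -0.083 with the same 2 libraries left out. The values with these libraries left out rest on AVE0991 replicate 1 alone. Its levels of both genes lay within the vehicle range, so values near 0 follow from it and test nothing. The part of cerebellar cells in the values of Zfp521 and Zfp536 was not tested.

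**Figure D5:**
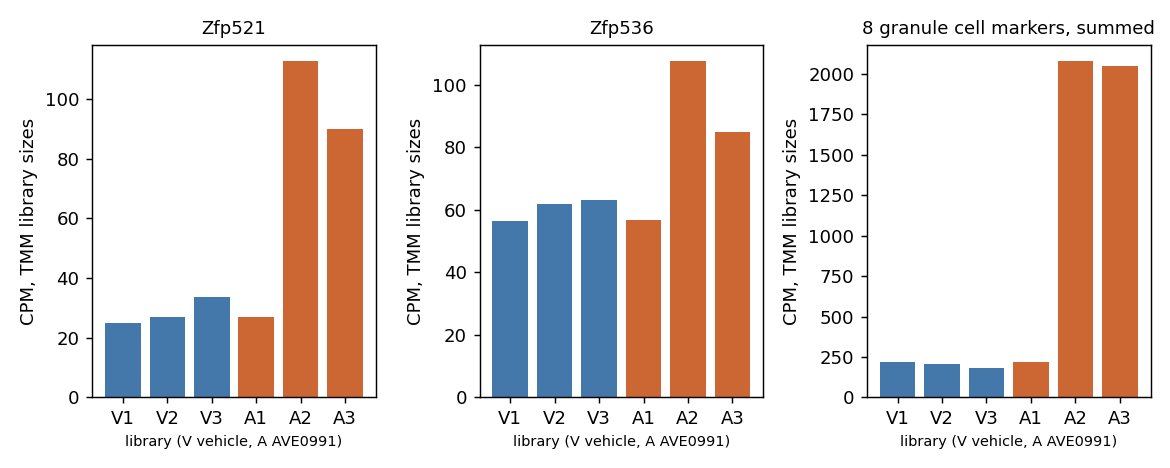
CPM on TMM library sizes in each library of Zfp521, of Zfp536 and of the sum of 8 cerebellar granule cell markers, with vehicle replicates V1 to V3 and AVE0991 replicates A1 to A3. AVE0991 replicates 2 and 3 are high in all 3 panels, with 113 and 90.0 CPM for Zfp521 and 2076 and 2045 CPM for the markers, and AVE0991 replicate 1 is at the vehicle level.

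On the length-scaled FPKM of the deposited table, the most abundant members over the 6 libraries were Zfp706 (mean of 39.4 FPKM), Zfp523 (30.5), Zfp664 (25.8), Zfp771 (25.7), Zfp651 (25.2) and Zfp532 (22.5). None of the 6 was called, and their log2 fold changes lay between -0.16 (Zfp706) and 0.23. The KRAB members had a median of 1.98 FPKM and the others 6.53 FPKM, so the called class is the less abundant one. The members nearest to 0 were Zfp691 (0.0071, SE 0.16), Zfp949 (-0.010, SE 0.14), Zfp619, Zfp507 and Zfp652. Zfp507 had 31.3, 34.1 and 32.5 CPM in the vehicle libraries and 33.4, 31.5 and 32.2 CPM in the AVE0991 libraries. Besides Zfp521, Zfp966 and Zfp687, the largest positive values were in Zfp768 (0.55, SE 0.17) and Zfp956 (0.48, SE 0.19), and neither passed.

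The corepressors through which KRAB proteins act were examined as a list of 25 genes of heterochromatin. All 25 were tested, 0 were called in either direction by edgeR, 6 lay lower and 6 higher with unadjusted p-values under 0.05, against 12.7% and 10.9% of all genes, and the median was 0.066. Trim28, the protein bound by the KRAB box, stood at 125, 136 and 127 CPM in the vehicle libraries and 155, 153 and 162 CPM in the AVE0991 libraries (log2 fold change 0.28, SE 0.09, edgeR adjusted p = 0.141). All its AVE0991 libraries were above all vehicle libraries. Setdb1, the histone methyltransferase recruited by Trim28, went from a mean of 39.8 ± 0.959 to 42.9 ± 2.61 CPM (log2 fold change 0.11, SE 0.09, edgeR adjusted p = 0.502). Fam208a, a subunit of the HUSH silencing complex, stood at -0.79 (SE 0.15, adjusted p = 0.0637, edgeR), Atrx at -0.62 and Cbx5, a heterochromatin protein, at -0.38. Ehmt1 at 0.38 and Dnmt3a at 0.31 had the highest values. In this list too the low values belonged to transcripts of low GC content, 38.9% for Fam208a and 39.5% for Atrx against 59.6% for Trim28. After the GC correction Fam208a stood at -0.24, Atrx at -0.11 and Trim28 at 0.074.

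In the authors' deposited table, whose p- and q-values are DESeq2's per the file headers, 58 members were lower and 5 higher at a q-value under 0.05, against 2.93% and 1.78% of the 33677 gene rows with a q-value there. The 19 members called lower by edgeR were all among the 58. The median deposited log2 fold change was -0.22 for the members and -0.021 for all genes in the authors' deposited table. The 5 higher ones in the authors' deposited table were Zfp628, Zfp526, Zfp574, Zfp687 and Zfp521, of which Zfp521 had a deposited q-value of 0.0261. Both sets of calls come from the same 6 libraries.

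The genes outside the members whose pattern over the 6 libraries was most like the members' mean log2 CPM were Rb1cc1, Fut9, Dcun1d1, AB010352 and Cul1, with Pearson correlations of 0.997 to 0.999 over 6 libraries. They were picked for this likeness out of 20178 genes, of which 24 had a correlation over 0.99. Rb1cc1 stood at -0.74, Fut9 at -1.20 and Dcun1d1 at -0.88 on the log2 fold change scale, and their transcripts had a GC content of 39.1%, 35.0% and 40.3%.

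Promoters were compared because neighbouring members had low values together. RefSeq windows of 300 bases around the start site were matched by symbol for 155 members, 17 of them called. 4 are shown from GRCm38.p6, at chr13:67683463-67683762 on the minus strand for Zfp738, chr13:67637732-67638031 on the minus strand for Zfp729a, chr17:33255096-33255395 on the minus strand for Zfp955a and chr8:4612920-4613219 on the plus strand for Zfp958. Capitals mark matches, on either strand, to the letters CCAAT (the CCAAT box), GGGCGG (the GC box) or TATAAA (the TATA box), none of which contains another, and each window is read along the gene's strand.
Zfp738: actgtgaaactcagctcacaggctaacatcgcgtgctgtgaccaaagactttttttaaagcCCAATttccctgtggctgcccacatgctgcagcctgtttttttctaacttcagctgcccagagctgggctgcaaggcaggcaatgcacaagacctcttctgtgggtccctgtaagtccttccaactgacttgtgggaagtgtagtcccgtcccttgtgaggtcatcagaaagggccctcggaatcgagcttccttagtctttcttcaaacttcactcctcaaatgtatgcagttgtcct
Zfp729a: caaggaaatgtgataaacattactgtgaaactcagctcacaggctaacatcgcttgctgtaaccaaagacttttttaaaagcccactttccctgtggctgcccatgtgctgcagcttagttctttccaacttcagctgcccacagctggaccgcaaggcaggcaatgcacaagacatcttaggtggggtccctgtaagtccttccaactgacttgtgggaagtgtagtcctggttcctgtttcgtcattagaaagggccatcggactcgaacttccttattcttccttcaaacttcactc
Zfp955a: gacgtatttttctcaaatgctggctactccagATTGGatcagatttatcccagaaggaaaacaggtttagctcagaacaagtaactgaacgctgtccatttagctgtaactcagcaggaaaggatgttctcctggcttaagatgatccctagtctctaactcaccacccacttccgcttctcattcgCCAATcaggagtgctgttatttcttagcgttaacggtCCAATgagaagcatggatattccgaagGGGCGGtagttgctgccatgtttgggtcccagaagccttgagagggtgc
Zfp958: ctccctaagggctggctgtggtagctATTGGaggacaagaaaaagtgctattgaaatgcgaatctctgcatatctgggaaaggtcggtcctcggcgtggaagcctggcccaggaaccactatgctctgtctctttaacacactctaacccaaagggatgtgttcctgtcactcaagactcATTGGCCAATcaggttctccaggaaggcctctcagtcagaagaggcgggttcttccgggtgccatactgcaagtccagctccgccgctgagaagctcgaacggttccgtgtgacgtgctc
CCAAT or its reverse complement occurred in 11 of the 17 windows of called members (64.7%), in 49.0% of the 155 member windows and in 37.9% of all 27025 windows. The GC box occurred in 35.3%, 47.1% and 35.9%, and the TATA box in 0 of the 17, in 2.58% and in 14.2%. The windows of called members had a median GC content of 53.7% and 9 CpG, those of all members 55% and 14, and all windows 52.7% and 7. Beside all windows, those of called members were thus not low in GC content. Among the members, windows differed with the GC content of the transcript. Those of the 66 members of at most 42% transcript GC had a median of 52.7% and 10 CpG, with CCAAT in 59.1%. Those of the 42 members above 50% had a median of 62.5% and 22.5 CpG, with CCAAT in 30.95%. The match counts describe letters and not binding sites. Of the 4 windows shown, only those of Zfp738 and Zfp729a belong to 1 run. Those of Zfp955a and Zfp958 hold 3 CCAAT matches each, the most among called members, so the 4 are not typical of the called windows.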

How the data were processed

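Total RNA depleted of ribosomal RNA was sequenced in 6 libraries (3 vehicle, 3 AVE0991), with dUTP in the second cDNA strand, per the labels' protocols. Reads were aligned with HISAT to mm9, per the submitters' processing notes; versions, the counting program and its use of strand are not stated in any source used here. The authors deposited estimated counts of reads for 36210 gene rows (81.6% whole as written, to floating-point tolerance) and counts for 11824 circular RNA rows, each 1 column per library. The same deposited table holds FPKM, a unit worked out from the values. A table deposited by the authors holds log2 fold changes with DESeq2 p-values and q-values, per the file headers. For 25 genes whose symbols had become dates, the RefSeq table gave the symbol by Entrez gene number.

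Estimated counts of gene rows were rounded and fitted in R 4.3.3 with edgeR 4.0.16 (filterByExpr, TMM, robust quasi-likelihood F test, no covariates), adjusted over 20363 genes. The SE is the log2 fold change over the square root of F. Depth was 44583296 to 50066692 counts per library; all pairs of libraries differed beyond sampling noise (chi-square of at least 16.4 per gene). Samples were grouped by the labels' treatment. Alternatives used limma 3.58.1 (voom), DESeq2 1.42.0, other scalings and filters, single libraries left out, a replicate block and a GC correction (a smooth fit per library on GC of the longest GENCODE M21 transcript). GENCODE M21 and RefSeq are on GRCm38, not mm9, so they served for names, gene order, GC and sequences only. The KRAB box (a 10-residue pattern of its core) and fingers (2 cysteines and 2 histidines at C2H2 spacing) were searched in translated GENCODE coding sequences, since a protein table was not used here.

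The members and lists were chosen with earlier results of these data known. Named genes are all called members, the 6 with the highest FPKM, the 5 largest positive and 5 smallest absolute changes, 3 on each side of the limit of 50 counts and 24 members with established roles, beside Trim28 and Setdb1. Genes of runs were named after their values were seen.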

Additional observations from a re-analysis of the deposited data

How the results depend on the processing

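The direction of the member median was kept under every setting run, and the count of calls was not. The 19 lower calls (against 0.83% of all genes) became 64 with DESeq2 (8 higher; all genes 6.56% lower, 4.97% higher), 47 with limma-voom (2 higher; 3.54%, 2.20%), 37 without a filter on low counts (1.12% lower) and 32 among genes of at least 1 CPM (2.09%), so calls rose among all genes too. They became 0 with gene and circular RNA rows in one fit (all genes 1 lower, 1 higher) and 0 with the replicate block (all genes 0 and 0). With the GC correction they became 0 (all genes 0 lower, 1 higher, member median -0.050). With the GC correction and the replicate block together they became 0 (all genes 0 and 0, member median -0.051). Calls were thus lost among all genes too. With AVE0991 replicates 2 and 3 left out the member median was -0.35. With single libraries left out the lower calls ranged from 0 to 47, the higher calls from 0 to 10 and the member median from -0.28 to -0.20. The non-zero counts were without AVE0991 replicate 1 (all genes 4.76% and 6.63%). With any other single library left out 0 of all genes were called. Correlations of deviations from the group means were -0.021, 0.092 and -0.35 between same-numbered libraries and -0.32 to 0.39 between the others. The labels state no pairing. With deviations from means of 3 libraries, these values cannot show whether libraries were paired. The causes were not tested. DESeq2 size factors gave 15 lower calls (against 0.575% of all genes), upper-quartile scaling 23 (1.04%), and limits of 20 or 200 mean counts in place of 50 gave 19 and 14. The 19 called members stayed below 0 in all fits run. A circular RNA comparison was not run because 0 of its rows carry a Zfp symbol.

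Log2 values of uncalled members near 0 or of uneven members changed sign. By DESeq2 these were Zfp507 0.0024, Zfp619 0.00099 and Zfp949 0.00082, and with its size factors in edgeR Zfp507 0.0024, Zfp619 0.00080 and Zfp949 0.00058. By limma-voom they were Zfp503 -0.29, Zfp619 0.048, Zfp652 0.015 and Zfp949 0.039, and with no filter Zfp507 0.0063, Zfp619 0.0071, Zfp652 0.0018 and Zfp949 0.0077. Zfp691 stood at -0.0085 with circular RNA rows, -0.019 at 1 CPM or more and -0.0089 with upper-quartile scaling. With AVE0991 replicates 2 and 3 left out they were Zfp507 0.043, Zfp521 -0.076, Zfp523 0.22, Zfp536 -0.083, Zfp568 -0.14, Zfp618 0.19 and Zfp622 0.24. The GC correction gave Zfp503 -0.0070, Zfp507 0.017, Zfp619 0.28, Zfp622 0.17, Zfp644 0.42, Zfp651 -0.085, Zfp652 0.081, Zfp691 -0.14, Zfp706 0.094, Zfp771 -0.072 and Zfp949 0.10, and with the replicate block Zfp503 -0.051, Zfp507 0.016, Zfp619 0.28, Zfp622 0.14, Zfp644 0.37, Zfp651 -0.086, Zfp652 0.077, Zfp691 -0.12, Zfp706 0.093, Zfp771 -0.073 and Zfp949 0.10. Leaving out single libraries gave Zfp619 from -0.054 to 0.063, Zfp644 from -0.37 to 0.12, Zfp652 from -0.067 to 0.078, Zfp691 from -0.081 to 0.16, Zfp949 from -0.12 to 0.10, Zfp503 from -0.016 to 0.48, Zfp507 from -0.032 to 0.024, Zfp523 from -0.18 to 0.090, Zfp622 from -0.25 to 0.048 and Zfp618 from -0.24 to 0.23.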

Other observations

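Besides the called members, 34 members (18.4%) lay below 0 and 2 (1.08%) above at an edgeR adjusted p from 0.05 to under 0.1, against 2.95% and 0.771% of all genes tested. Zfp804b, the paralog of Zfp804a, had 1.92, 2.19 and 2.37 CPM in the vehicle libraries and 0.977, 0.653 and 0.749 CPM in the AVE0991 libraries, and the groups did not overlap (log2 fold change -1.44, SE 0.25, edgeR adjusted p = 0.0528). Both Zfp804a and Zfp804b lack a KRAB box by the pattern and lie outside runs of other members, and their transcripts have a GC content of 45.7% and 43.8%, above that of every called member. After the GC correction they stood at -0.88 (SE 0.28) and -1.21 (SE 0.25), with adjusted p-values of 0.249 and 0.204 by edgeR. Zfp804b had the lowest corrected value of the 185 members. The 5 listed cortical and hippocampal neuron markers summed to 202 to 281 CPM in vehicle and 100.5 to 198 CPM in AVE0991 libraries, and their part in the values of Zfp804a and Zfp804b was not tested. This pair was singled out after its values were seen.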
